A study of Mus musculus with 2 samples.

Results

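The genes described here are 10 members of the Wnt and β-catenin pathway, taken by symbol from the 32285 genes counted in each library: the ligands Wnt2 and Wnt9b, the secreted enhancer Rspo3, its receptor Lgr4, the ubiquitin ligases Znrf3 and Rnf43, the destruction complex members Apc and Axin1, β-catenin itself (Ctnnb1), and the transcription factor Tcf7l2. All 10 symbols matched exactly 1 gene. The genes were taken by name with no filter on their values, but the list was chosen with earlier results of these data known. Counts of unique molecular identifiers (UMIs, each standing for 1 captured transcript) came from 2 droplet libraries of mouse liver, 1 per group. The WT library was made from livers of control mice, and the N-LKO library from liver plus tumor of mice in which albumin-Cre, active in hepatocytes, deleted a loxP-flanked NgBR (Nus1) allele, which encodes a subunit of cis-prenyltransferase. Mice of the study were male and on a C57BL6 background, and had been fed chow before the diet. Both groups had received the diet for 16 weeks, named a high-fat diet in the titles and a Western diet in the treatment labels. Hepatocytes and nonparenchymal cells were mixed before loading, and tumor cells were added to the N-LKO mixture, so genotype, tumor tissue and library differed together and cannot be told apart. The labels do not say how many mice contributed to each library.

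In the absence of Wnt, a complex built on APC and AXIN1 marks β-catenin for destruction. Wnt ligands at Frizzled receptors stop this, and β-catenin then enters the nucleus and acts with TCF factors such as TCF7L2. ZNRF3 and RNF43 remove Frizzled receptors from the surface, while R-spondins bound to LGR4 or LGR5 clear those ligases and so strengthen the signal. In liver, Wnt2, Wnt9b and Rspo3 made by cells around the central vein maintain the pericentral program of hepatocytes, which includes glutamine synthetase (Glul) and Cyp2e1.

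The upstream sequence of a few members is shown because Wnt2 was lower in N-LKO endothelial-like cells and Lgr4 was higher in several nonparenchymal classes. That of Wnt9b is shown because the same endothelial-like class held it, with too few UMIs to tell whether it followed Wnt2. The sequences are from RefSeq on build GRCm38.p6, 5′ to 3′ on the strand of the gene. Wnt2 lies at chr6:17988940-18030585 on the minus strand in GENCODE M21, and the stretch shown is chr6:18030586-18030695, the 110 bases just upstream of that span. Wnt9b lies at chr11:103727364-103749821 on the minus strand, and the 250 bases shown are chr11:103749822-103750071. Lgr4 lies at chr2:109917647-110014257 on the plus strand, and the 250 bases shown are chr2:109917397-109917646. All letters are in lower case because none of these stretches held either motif searched.
Wnt2: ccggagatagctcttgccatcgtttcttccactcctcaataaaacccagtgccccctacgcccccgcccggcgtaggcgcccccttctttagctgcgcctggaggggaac
Wnt9b: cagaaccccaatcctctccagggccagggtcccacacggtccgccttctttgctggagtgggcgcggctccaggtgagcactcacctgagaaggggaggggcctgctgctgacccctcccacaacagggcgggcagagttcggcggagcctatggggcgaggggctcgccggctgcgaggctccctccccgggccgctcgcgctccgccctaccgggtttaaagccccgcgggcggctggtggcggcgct
Lgr4: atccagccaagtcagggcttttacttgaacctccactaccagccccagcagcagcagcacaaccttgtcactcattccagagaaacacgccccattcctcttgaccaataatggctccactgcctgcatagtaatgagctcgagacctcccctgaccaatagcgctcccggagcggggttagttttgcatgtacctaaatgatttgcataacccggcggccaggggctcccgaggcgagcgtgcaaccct

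The motifs were CTTTGA, the core letters bound by TCF factors, and GATAA, the core letters bound by GATA factors, each on both strands. Across the 32851 promoter windows of 250 bases in the table, 13.8% held the first and 22.6% the second. Neither was found in the 250 bases before the annotated start of Wnt9b or Lgr4. For Wnt2, whose RefSeq start lies inside the GENCODE span, the 250-base window before that start held GATAA 2 times and CTTTGA 0 times, with both matches in the part not printed. GC content of the 3 windows was 63.6% for Wnt2, 72.0% for Wnt9b and 55.6% for Lgr4. A match in letters is a description only.

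The libraries were of like depth, with 85522287 UMIs in WT and 87575064 in N-LKO. After filtering, 17636 WT cells (median 1390 UMIs) and 19909 N-LKO cells (median 1452 UMIs) were kept, and 113 barcode sequences occurred among the kept cells of both libraries. Cells were grouped without using any of the 10 genes, and classes were named from marker lists and are written "X-like". Nus1, the deleted gene, was measured at 71.7 CPM (UMIs of the gene per 1000000 UMIs of the class; 95% interval 67.6 to 76.1) in WT against 39.4 CPM (33.9 to 45.5) in N-LKO hepatocyte-like cells, and at 89.2 and 105 CPM in endothelial-like cells. The hepatocyte-like class held 9283 WT and 2098 N-LKO cells, the endothelial-like class 1832 and 1948, the hepatic stellate-like class 889 and 675, and the macrophage-like class 1686 and 3717. Cluster 5 matched no marker list, was rich in Malat1, a nuclear RNA, and held 22 WT and 2430 N-LKO cells. It was kept out of every class. Another group of 3 clusters carried markers of more than 1 type and were called mixed.

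With 1 library per group, no test across samples was possible. Intervals on CPM are exact Poisson, those on ratios exact conditional binomial and those on shares Clopper-Pearson, all at 95%, and they cover counting error only. Ratios are given as the log2 of the N-LKO level divided by the WT level, after 0.5 UMI had been added to either sum. In these class sums, fewer expressing cells and fewer transcripts per cell cannot be told apart. A gene was counted as measured in a class at a mean of at least 5 CPM with at least 10 UMIs in the libraries together, and as higher or lower when it passed 1.5-fold.

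Rspo3 and Wnt2 were lower in the N-LKO library in hepatic stellate-like and endothelial-like cells, the classes in which their levels were highest in WT, while Znrf3 and Lgr4 were higher there. In endothelial-like cells the lower Rspo3 and Wnt2 were not seen within finer clusters 2 and 9, described below. Within these clusters the intervals of the Znrf3 and Lgr4 ratios included 0, on few UMIs in 1 library. In endothelial-like cells all 10 members were measured, and 3 were higher (Znrf3, Lgr4 and Rnf43) and 2 lower (Wnt2 and Rspo3) in N-LKO. Over the 10818 genes measured in that class, 15.5% were higher and 16.3% were lower. The median log2 ratio of the members was 0.24, against 0.02 for all genes. In hepatic stellate-like cells 9 members were measured, of which the same 3 were higher and 3 were lower (Wnt2, Rspo3 and Axin1), where 16.9% of 11476 genes were higher and 21.9% lower, and their median was -0.13 against -0.09. Hepatocyte-like cells had 8 measured members, 0 higher and 2 lower, Rspo3 and Tcf7l2 (background 12.9% higher and 8.47% lower of 9508 genes), with a median of -0.10 against 0.04. Of the 8 members measured in macrophage-like cells, 1, Rnf43, was higher and 0 were lower, against 9.64% and 14.1% of 10421 genes, and the median was 0.20 against -0.07. These counts are small and are given as a description.

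**Figure D1:**
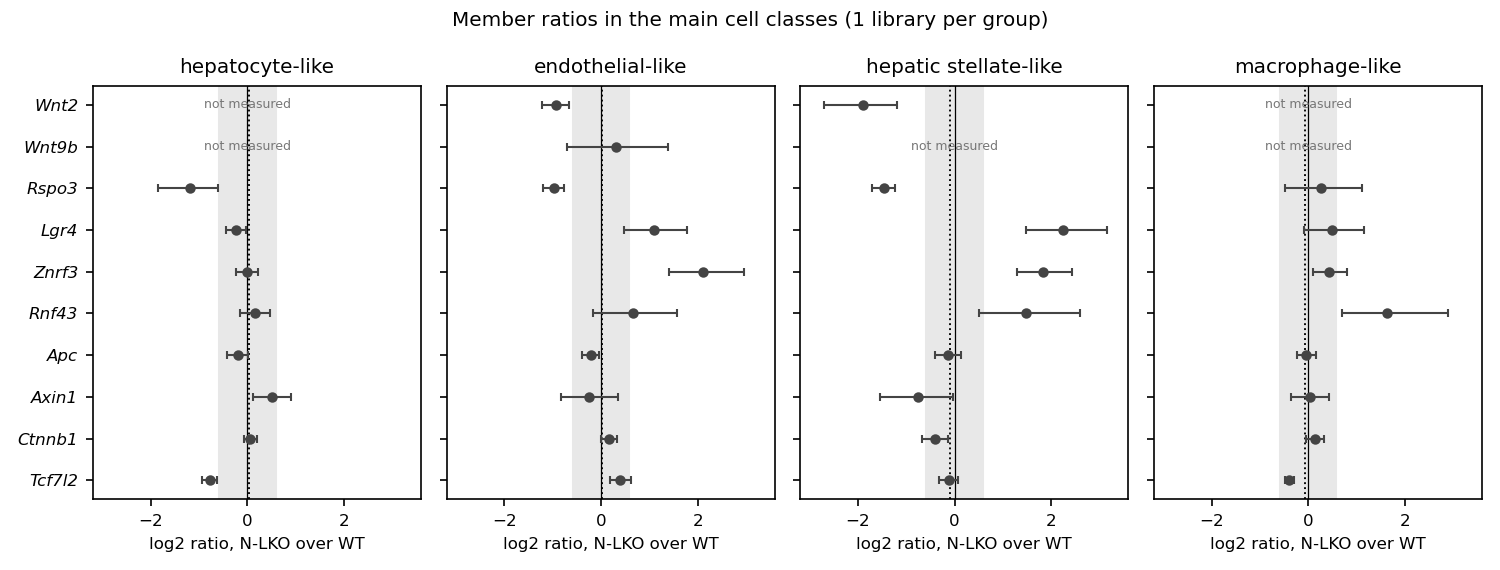
Log2 ratio of N-LKO over WT (x axis) for each member (y axis) in the 4 main cell classes, as points with 95% counting intervals. The gray band spans 1.5-fold in either direction, and the dotted line is the median of all genes measured in that class. Wnt2 and Rspo3 lie left of the band and Znrf3 and Lgr4 right of it in the endothelial-like and hepatic stellate-like panels, whereas most members lie inside it in the hepatocyte-like and macrophage-like panels.

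Wnt2, a ligand that activates β-catenin signaling, was highest in endothelial-like cells in both libraries, and its interval there did not overlap that of the next class. It was read 287 times in WT and 167 times in N-LKO endothelial-like cells, at 125 CPM (111 to 140) and 65.2 CPM (55.7 to 75.9). The log2 ratio was -0.93 (-1.22 to -0.66). The intervals of the libraries did not overlap. In hepatic stellate-like cells, the second class in WT, Wnt2 was read 99 and 19 times, at 60.2 CPM (48.9 to 73.2) and 15.9 CPM (9.57 to 24.8), a log2 ratio of -1.89 (-2.71 to -1.20). Thus the stellate-like class came second in WT, whereas in N-LKO its interval overlapped those of several other classes. At a finer clustering (resolution 0.8, chosen for this comparison after seeing the data) the endothelial-like cells of the libraries fell largely into different clusters. Finer cluster 9 held 1644 of them in WT and 47 in N-LKO, and finer cluster 2 held 141 and 1805. Wnt2 in finer cluster 9 was 133 CPM (118 to 150) and 144 CPM (65.9 to 274), a log2 ratio of 0.19 (-1.03 to 1.06), and in finer cluster 2 it was 44.3 CPM (19.1 to 87.2) and 62.6 CPM (52.9 to 73.6), a log2 ratio of 0.42 (-0.52 to 1.74). The lower Wnt2 of the class was therefore not seen within either cluster, where 1 library had few cells, and a lower level within a kind of endothelial cell and a different mix of kinds cannot be told apart. The stellate-like cells all stayed in 1 finer cluster. Elsewhere Wnt2 was sparse, with 4.43 in WT against 1.08 CPM in N-LKO hepatocyte-like cells, where the estimated free RNA was 3.47 and 2.12 CPM, and with 4.03 and 3.77 CPM in macrophage-like cells. Free RNA here is transcript from broken cells that is captured in every droplet, estimated from barcodes under 500 UMIs.

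The share of cells with a Wnt2 UMI was compared after every cell had been thinned to 1000 UMIs. In endothelial-like cells it was 10.9% (9.53 to 12.4) in WT and 5.90% (4.90 to 7.04) in N-LKO, and before thinning 12.8% and 7.49%, at median depths of 1170 and 1205 UMIs. The hepatic stellate-like shares were 5.74% and 1.33% after thinning, and 9.67% and 2.67% before. T-like cells, which should lack the transcript, had 0.259% in WT and 0.316% in N-LKO at median depths of 1187.5 and 1351.5 UMIs. Both endothelial-like shares thus lay above this background, and the share in N-LKO was below that in WT by more than counting error.

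Wnt9b, a ligand of the central vein endothelium, was rare in both libraries, with too few UMIs to tell whether it followed Wnt2. It was read 15 times in WT and 21 times in N-LKO endothelial-like cells, at 6.53 CPM (3.65 to 10.8) and 8.20 CPM (5.08 to 12.5). The log2 ratio was 0.32 with an interval of -0.70 to 1.39, and 1.5-fold in either direction lay inside it. The ratio of Wnt2, -0.93, lay outside this interval, but the interval of Wnt2, -1.22 to -0.66, overlapped it. No other named class held more than 6 Wnt9b UMIs in a library. The thinned share of endothelial-like cells with a UMI was 0.491% in WT and 0.719% in N-LKO.

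Rspo3, the R-spondin that binds LGR receptors, was highest in hepatic stellate-like cells and second in endothelial-like cells in both libraries, with intervals that did not overlap. Hepatic stellate-like cells gave 703 Rspo3 UMIs in WT and 185 in N-LKO, at 427 CPM (396 to 460) and 155 CPM (133 to 179). The log2 ratio was -1.46 (-1.71 to -1.23). Endothelial-like cells gave 476 and 269 UMIs, at 207 CPM (189 to 227) and 105 CPM (92.9 to 118), a log2 ratio of -0.98 (-1.20 to -0.76). In both classes the WT level lay above the N-LKO level without overlap. Within the finer endothelial clusters Rspo3 was 223 and 320 CPM in cluster 9 (log2 ratio 0.56, -0.20 to 1.17) and 94.0 and 98.0 CPM in cluster 2 (0.02, -0.65 to 0.86), so it too was not lower within them. After thinning, 32.1% (29.0 to 35.2) of WT and 14.2% (11.7 to 17.1) of N-LKO hepatic stellate-like cells held a Rspo3 UMI, and before thinning 47.8% and 20.1%. For endothelial-like cells the thinned shares were 10.3% (8.91 to 11.7) and 6.78% (5.70 to 7.98), and those in T-like cells were 0.864% and 0.579%.

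The defining markers of the classes also differed. In hepatic stellate-like cells all 12 stellate markers were present in both libraries, and their summed level was 9151 in WT against 4834 CPM in N-LKO. The 12 endothelial markers summed to 4374 and 2148 CPM in that class, the 10 macrophage markers to 3573 and 2374 CPM, and the 9 hepatocyte markers to 13337 and 10769 CPM. The stellate-like class therefore carried endothelial transcripts in both libraries, with less of them in N-LKO, and the part of this in the lower Rspo3 and Wnt2 was not tested. Within endothelial-like cells the endothelial markers summed to 8517 and 6756 CPM and the stellate markers to 198 and 158 CPM, so the ratios of Rspo3 and Wnt2 there lay further below 1 than those of the marker sums, and all 12 endothelial markers were present in both libraries.

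The remaining classes held little Rspo3. Macrophage-like cells measured 7.66 in WT against 9.34 CPM in N-LKO, and dendritic-like cells 49.4 and 45.7 CPM. Cholangiocyte-like cells had 12 and 11 UMIs (39.9 and 11.3 CPM), and neutrophil-like cells 15 and 34 UMIs (94.1 and 31.0 CPM). In hepatocyte-like cells Rspo3 was read 203 times in WT and 26 times in N-LKO (log2 ratio -1.19, -1.86 to -0.62). The N-LKO level of 5.63 CPM was below its free RNA estimate of 7.86 CPM, and in WT that estimate was 10.0 CPM. Mixed clusters with endothelial transcripts did not all behave alike. In cluster 7, with macrophage and endothelial markers, Rspo3 was 123 in WT against 115 CPM in N-LKO (log2 ratio -0.10, -0.42 to 0.23), whereas Wnt2 was 65.4 and 28.5 CPM. In cluster 12, with T and endothelial markers, Rspo3 was 198 and 88.1 CPM, and Wnt2 was 110 and 32.2 CPM.

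**Figure D2:**
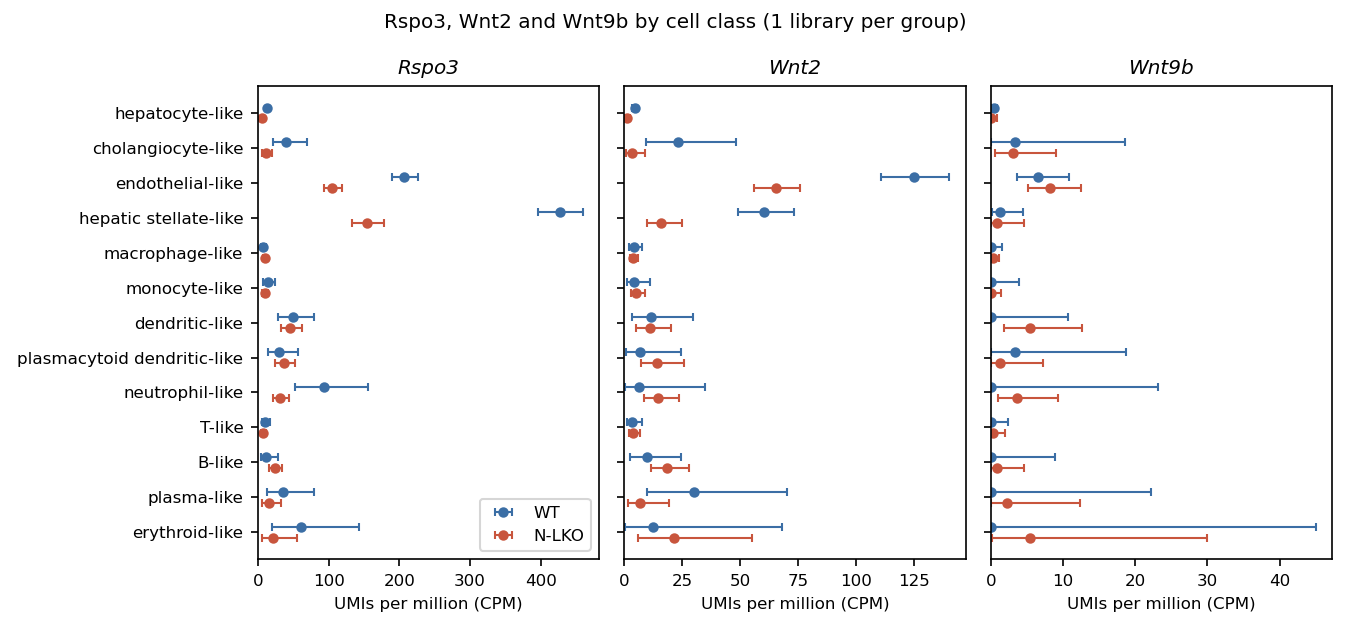
CPM (x axis) of Rspo3, Wnt2 and Wnt9b in each named cell class (y axis) for WT (blue) and N-LKO (red), with exact Poisson 95% intervals; each panel has its own scale. Rspo3 is highest in hepatic stellate-like and then endothelial-like cells, Wnt2 is highest in endothelial-like cells, both are lower in N-LKO in these classes, and Wnt9b has wide overlapping intervals throughout.

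Rspo3 was read more often in cells that also held Wnt2. Among endothelial-like cells of WT, 56 of 235 cells with a Wnt2 UMI also held a Rspo3 UMI (23.8%, 18.5 to 29.8), against 149 of 1597 cells without one (9.33%). In N-LKO the counts were 26 of 146 (17.8%) and 117 of 1802 (6.49%). The higher share in Wnt2-positive cells was seen in each library, at median depths of 1207 and 1165 UMIs in WT and 1211 and 1204.5 UMIs in N-LKO. Between the libraries the shares of Wnt2-positive cells overlapped in their intervals. Cells of 1 library share their source, so this describes the libraries.

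Across the 24 pairs of class and library with at least 100 cells, the profile most like that of Wnt2 was Plpp1 (Pearson r 0.928 on log2(CPM + 1)), followed by Cdh13 (0.908) and Aqp1 (0.907). For Rspo3 the nearest were Calcrl (0.933), Sema3d (0.912) and Ehd3 (0.891), and for Wnt9b they were Sema3f (0.816), Endou (0.815) and Ppm1f (0.811). The points share libraries and depth, and 13607 genes were compared, so these are descriptions of likeness only.

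Other ligand genes of the pathway were low outside the stellate-like class. Of 21 genes for ligands and their export, 3 were measured in endothelial-like cells, 0 higher and 1, Wnt2 itself, lower. Of all genes in that class 15.5% were higher and 16.3% lower. In hepatic stellate-like cells 4 were measured (0 higher, 3 lower where 21.9% of all genes were lower). Of these 3, 1 was Wnt2 itself, and the median was -1.66 against -0.09 for all genes. Wnt4 in hepatic stellate-like cells was read 84 times in WT and 11 times in N-LKO (51.0 and 9.20 CPM, log2 ratio -2.42), and Wnt5a, a ligand that can signal without β-catenin, 20 and 5 times (log2 ratio -1.44). Wls, which carries Wnt proteins to the surface, differed less, at 189 and 130 CPM in hepatic stellate-like cells (-0.54) and at 124 and 103 CPM in endothelial-like cells (-0.27). Porcn, which acylates Wnts, had at most 6 UMIs in either class and library. Among 16 inhibitors, 2 were measured in endothelial-like cells (0 higher, 1 lower) and 3 in hepatic stellate-like cells (3 higher, 0 lower), where 15.5% and 16.9% of all genes were higher and 16.3% and 21.9% lower. Dkk3 was 12.2 and 4.30 CPM in endothelial-like cells (-1.46) but 18.2 and 39.3 CPM in hepatic stellate-like cells (1.10).

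Genes that mark zones of the endothelium gave a split picture. Kit, a marker of pericentral sinusoids, was 127 in WT against 87.5 CPM in N-LKO endothelial-like cells (-0.54). Thbd, found in central vein endothelium, was 37.0 and 114 CPM (1.61), and Vwf, a marker of large vessels, 17.4 and 63.3 CPM (1.85). Selp was 32.6 and 43.0 CPM (0.39). Thbd and Vwf were thus higher in N-LKO beside the lower Wnt2 and Rspo3, and the part of this in either member was not tested.

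Lgr4, an R-spondin receptor, was higher in N-LKO in several nonparenchymal classes. Hepatocyte-like cells measured 58.7 (55.0 to 62.6) in WT against 49.8 CPM (43.5 to 56.6) in N-LKO. The log2 ratio of -0.24 was within 1.5-fold, although over the settings run it ranged from -1.37 to 0.99. It was 0.99 with the unnamed cluster 5 counted as hepatocyte. With free RNA subtracted, 145 CPM was left in WT and 56.0 CPM in N-LKO. Hepatic stellate-like cells had 17 and 60 UMIs, at 10.3 and 50.2 CPM, a log2 ratio of 2.25 (1.48 to 3.15). Endothelial-like cells had 30 and 72 UMIs, at 13.1 and 28.1 CPM (1.09, 0.47 to 1.77). In finer endothelial cluster 2 Lgr4 was read 1 and 71 times (1.88, -0.07 to 7.77). In finer cluster 9 it was read 29 times in 1644 WT cells (14.2 CPM) and 0 times in 47 N-LKO cells. The upper bound in N-LKO was 59.1 CPM, so cluster 9 gave no direction for Lgr4. In T-like cells Lgr4 was 7.22 and 37.1 CPM (2.30, 1.47 to 3.41), and in B-like cells it was read 2 and 57 times. Macrophage-like cells, at 12.1 and 17.2 CPM (0.49), stayed within 1.5-fold. Free RNA also held more Lgr4 in N-LKO. Its estimate was 9.33 and 16.6 CPM in endothelial-like, 5.01 and 13.6 CPM in hepatic stellate-like and 9.65 and 15.7 CPM in T-like cells. In WT the measured T-like level was under that estimate.

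Znrf3 encodes a ligase that removes Frizzled receptors and is itself a target of β-catenin in many tissues. In endothelial-like cells it was read 18 times in WT and 89 times in N-LKO, at 7.83 and 34.8 CPM, a log2 ratio of 2.12 (1.41 to 2.97). The free RNA estimate was 8.14 and 19.6 CPM, so the WT value was no higher than free RNA and the N-LKO value was above it. Within the finer endothelial clusters the ratio was 0.86 (-0.52 to 3.38) in cluster 2 and 1.66 (-4.27 to 3.82) in cluster 9. Both intervals included 0, on few UMIs in 1 library. Hepatic stellate-like cells had 38 and 99 UMIs, at 23.1 and 82.8 CPM (1.83, 1.29 to 2.42), against estimates of 4.37 and 16.1 CPM. Macrophage-like cells measured 34.7 and 47.2 CPM (0.44). In hepatocyte-like cells Znrf3 was read 651 and 192 times, at 41.8 and 41.6 CPM, with a log2 ratio of 0.00. Levels were highest outside these classes, in T-like cells at 99.1 in WT against 139 CPM in N-LKO, in cholangiocyte-like cells at 79.9 and 117 CPM, and in plasma-like cells at 271 and 253 CPM, the WT value being from 98 cells.

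Rnf43, the related ligase, was sparser. It was read 13 and 27 times in hepatic stellate-like cells (7.90 and 22.6 CPM, log2 ratio 1.49, 0.51 to 2.59, free RNA 2.99 and 9.57 CPM). In endothelial-like cells its 19 and 34 UMIs (8.27 and 13.3 CPM) gave a ratio of 0.67 whose interval, -0.17 to 1.58, included 0, and the free RNA estimate was 5.58 and 11.6 CPM. With free RNA subtracted the log2 ratio became -0.58, on 6.18 and 4.22 UMIs. Macrophage-like cells had 9 and 72 UMIs, at 3.63 and 11.8 CPM (1.63, 0.70 to 2.89), with free RNA at 3.99 and 7.75 CPM, above the measured level in WT. Hepatocyte-like cells measured 22.1 and 24.7 CPM (0.16), and T-like cells 47.2 and 57.0 CPM.

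These 3 genes are long, with gene spans of 168.5 kb for Znrf3, 96.6 kb for Lgr4 and 72.8 kb for Rnf43, and span was related to the ratio over all genes. In the longest of 5 bins of gene span, the median log2 ratio was 0.27 in endothelial-like, 0.29 in hepatic stellate-like and 0.48 in T-like cells, while in the shortest bin it was -0.29, -0.50 and -0.41. Znrf3 and Lgr4 belong to the longest bin and their ratios in these classes were at or above its median, while Rspo3, at 83.5 kb in the same bin, was below it. Over all barcodes of the libraries, before any filter, Znrf3 was at 27.6 in WT against 65.5 CPM in N-LKO, Rnf43 at 16.0 and 31.7 CPM, and Lgr4 at 28.0 and 40.2 CPM. Mitochondrial transcripts also differed, taking 14.5% of WT and 19.8% of N-LKO UMIs in endothelial-like cells and 10.5% and 16.2% in hepatic stellate-like cells. The part of these in the ratios was not tested.

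**Figure D3:**
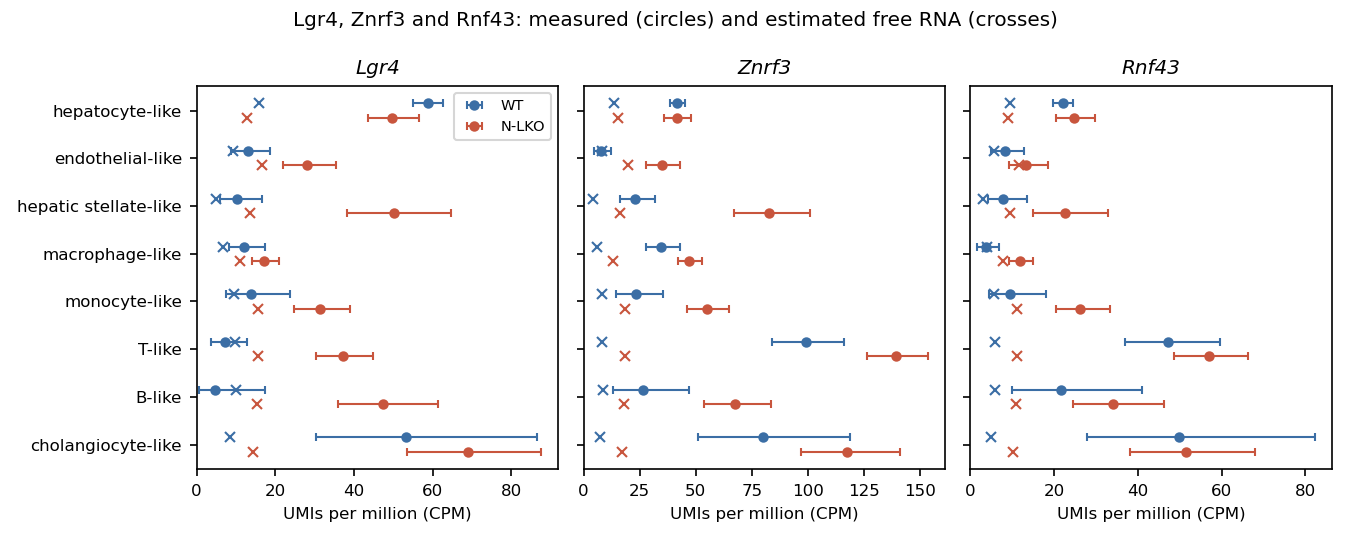
Measured CPM (x axis, circles with exact Poisson 95% intervals) and the level estimated from free RNA (crosses) for Lgr4, Znrf3 and Rnf43 in 8 cell classes (y axis), WT in blue and N-LKO in red. The red crosses lie right of the blue ones in the nonparenchymal classes, and the N-LKO circles of Znrf3 and Lgr4 in hepatic stellate-like cells lie well right of their crosses.

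Among the 9 genes of R-spondins, their receptors and ligases, 5 were measured in endothelial-like and 5 in hepatic stellate-like cells, and in each class 4 were higher and 1, Rspo3, was lower, beside 15.5% higher and 16.3% lower of all genes in endothelial-like and 16.9% and 21.9% in hepatic stellate-like cells. Of these genes 4 in each class are members already described. The fourth higher gene beside the 3 above was Lgr5, an R-spondin receptor of pericentral hepatocytes, at 5.22 and 8.60 CPM in endothelial-like (interval of the ratio -0.36 to 1.87) and 3.65 and 15.1 CPM in hepatic stellate-like cells. Of 15 receptors and co-receptors, 7 were measured in endothelial-like cells, and 1 was higher and 0 were lower against the same 15.5% and 16.3%. The higher one was Ror1, a receptor for Wnt5a, at 9.57 and 32.8 CPM (1.75), with free RNA at 11.6 and 25.7 CPM.

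Of the destruction complex members, Apc stayed within 1.5-fold in the 4 main classes and Axin1 was lower in hepatic stellate-like cells. Apc, its scaffold, was 55.8 and 48.5 CPM in hepatocyte-like cells (-0.20), 222 and 191 CPM in endothelial-like cells (-0.22), 183 and 167 CPM in hepatic stellate-like cells (-0.13) and 132 and 129 CPM in macrophage-like cells (-0.04). With cluster 5 counted as hepatocyte, the hepatocyte ratio of Apc became 0.69. With free RNA subtracted, 107 CPM of Apc was left in WT and 47.4 CPM in N-LKO hepatocyte-like cells. Axin1, the scaffold present in limiting amount, was 12.0 and 17.1 CPM in hepatocyte-like cells. Its log2 ratio there of 0.52 (0.11 to 0.90) stayed within 1.5-fold. Over the settings run it ranged from -0.17 to 1.24, the latter with cluster 5 counted. In hepatic stellate-like cells it was read 54 and 23 times, at 32.8 and 19.2 CPM (-0.75, -1.54 to -0.04). It was 22.6 and 19.1 CPM in endothelial-like cells (-0.24) and 31.4 and 32.3 CPM in macrophage-like cells. Of the 22 genes of dishevelled and the destruction complex, 16 were measured in hepatocyte-like cells and 0 passed 1.5-fold in either direction, against 12.9% higher and 8.47% lower of all genes. Of the 19 measured in endothelial-like cells, 1 was higher and 1 lower, of the 19 in hepatic stellate-like cells 1 was higher and 3 were lower, and of the 16 in macrophage-like cells 1 was higher and 1 lower, against the shares of all genes given above for these classes.

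Ctnnb1, which encodes β-catenin, was at similar levels in both libraries. It was 117 in WT against 122 CPM in N-LKO hepatocyte-like cells (0.06), 226 and 253 CPM in endothelial-like cells (0.16), and 139 and 154 CPM in macrophage-like cells (0.14). Hepatic stellate-like cells measured 204 and 155 CPM (-0.40), within 1.5-fold. The highest level was in cholangiocyte-like cells, at 276 and 299 CPM, although its interval overlapped that of endothelial-like cells. Transcript levels say nothing of the amount or location of the protein.

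Tcf7l2, the TCF factor of β-catenin, was lower in N-LKO hepatocyte-like cells and higher in T-like cells. Hepatocyte-like cells gave 2271 UMIs in WT and 392 in N-LKO, at 146 and 84.8 CPM, a log2 ratio of -0.78 (-0.94 to -0.63). T-like cells, a class that also carries natural killer markers, gave 156 and 589 UMIs, at 102 and 202 CPM (0.98, 0.73 to 1.25). In the same class the 10 macrophage markers summed to 1508 and 2308 CPM, the 8 T markers to 2689 and 1817 CPM and the natural killer markers to 588 and 371 CPM. Finer cluster 14, with macrophage genes among its leading genes, held 153 of these cells in WT and 684 in N-LKO, with macrophage markers at 7086 and 4838 CPM and Tcf7l2 at 377 and 284 CPM (-0.42, -0.74 to -0.07). In finer cluster 6, the largest of the T-like cells, with 910 and 1148 of them, macrophage markers were 371 and 596 CPM and Tcf7l2 was 47.9 and 153 CPM (1.66, 1.24 to 2.13). At that finer clustering, clusters 6 and 14 scored highest for natural killer markers and were left unnamed. The part of the macrophage transcripts in the T-like ratio was otherwise not tested. The level was highest in macrophage-like cells, at 559 in WT against 425 CPM in N-LKO (-0.40, -0.49 to -0.30), and did not overlap the next class in either library. Macrophage-like cells also fell into different finer clusters, with 1184 WT and 51 N-LKO cells in cluster 11 and 368 and 3393 in cluster 1, and within these Tcf7l2 was 620 and 758 CPM (0.30, -0.12 to 0.68) and 447 and 423 CPM (-0.08, -0.26 to 0.11). The lower value of the class thus was not seen within either. Endothelial-like cells measured 122 and 161 CPM (0.40) and hepatic stellate-like cells 327 and 301 CPM (-0.12). With a span of 192 kb, Tcf7l2 falls in the longest bin, whose median was -0.07 in hepatocyte-like and 0.48 in T-like cells.

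The hepatocyte-like comparison rested on different clusters in each library. Cluster 0 held 7462 WT and 74 N-LKO cells, whereas cluster 6 held 128 and 2000. Between these main clusters Tcf7l2 was 147 and 83.4 CPM (-0.82) and the ratio of Rspo3 was -1.44, and each other measured member was within 1.5-fold, among them Ctnnb1 (0.00), Znrf3 (0.07), Lgr4 (-0.24) and Rnf43 (0.29). The unnamed cluster 5 was set beside cluster 17, the hepatocyte-like cluster richest in Malat1 in WT (330 cells), with Malat1 at 35717 CPM in WT cluster 17 and 19579 CPM in N-LKO cluster 5. In that pair Tcf7l2 was 353 and 346 CPM (-0.03), Lgr4 149 and 184 CPM (0.30), Rnf43 89.5 and 124 CPM (0.46) and Znrf3 148 and 224 CPM (0.59). Axin1 was 17.9 and 40.1 CPM (1.11) and Ctnnb1 65.6 and 109 CPM (0.72). Rspo3 was 4.47 and 20.2 CPM on 3 and 94 UMIs (1.96, 0.58 to 4.48), the opposite of its direction between the main clusters. In both libraries the Malat1-rich cluster thus held more Tcf7l2, Lgr4, Znrf3 and Rnf43 (in CPM) than the main one. With cluster 5 counted as hepatocyte, the log2 ratio of Tcf7l2 became 0.55, that of Znrf3 1.66 and that of Rnf43 1.74, and with cells kept from 500 UMIs upward that of Tcf7l2 was -0.12, so a direction for Tcf7l2 in all hepatocytes depends on which cells are counted. Of the 8 measured members, 5 were then higher (Apc, Axin1, Znrf3, Rnf43 and Lgr4) and 0 lower, where 40.6% of all genes were higher and 7.23% lower, and the ratio of Rspo3 was -0.02.

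**Figure D4:**
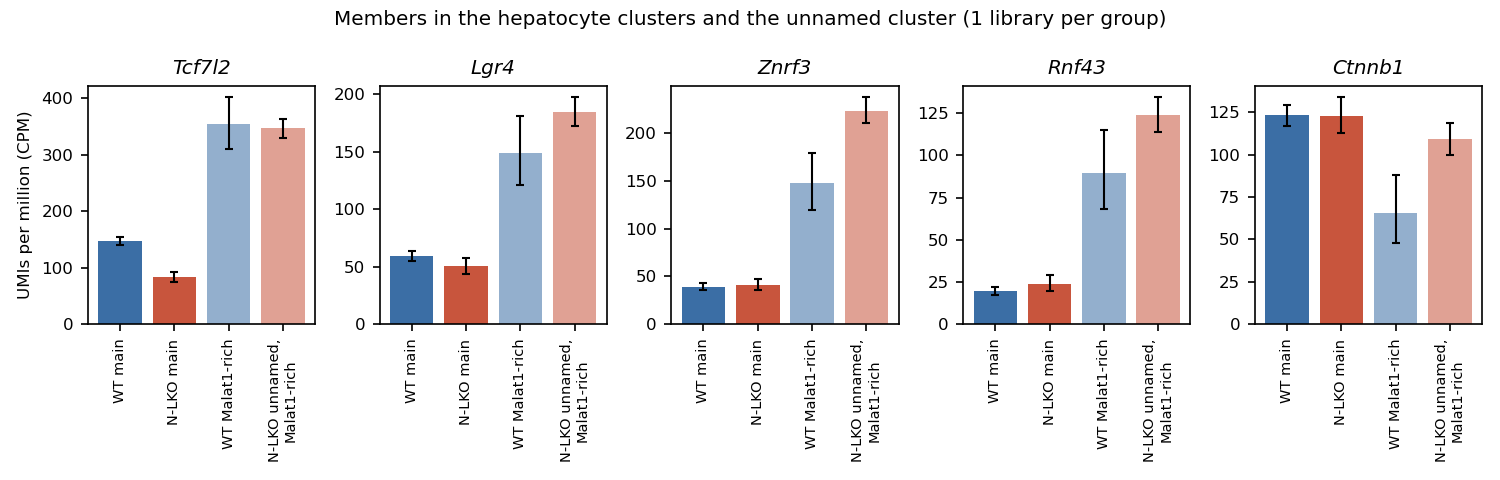
CPM (y axis, exact Poisson 95% intervals) of Tcf7l2, Lgr4, Znrf3, Rnf43 and Ctnnb1 in the main WT and main N-LKO hepatocyte clusters (dark bars), the Malat1-rich WT hepatocyte cluster and the unnamed Malat1-rich N-LKO cluster (pale bars). Tcf7l2 is lower in the main N-LKO cluster than in the main WT cluster, 83.4 against 147 CPM, but the pale bars stand at 353 and 346 CPM.

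Targets that β-catenin raises in liver did not all differ in 1 direction. Of 27 listed, 18 were measured in hepatocyte-like cells, and 3 were higher and 6 lower in N-LKO (12.9% and 8.47% of all genes), with a median log2 ratio of 0.02 against 0.04 for all genes. Among those lower were Slc1a2, a glutamate transporter, at 101 and 25.8 CPM (-1.96), Oat, an ornithine aminotransferase, at 340 and 112 CPM (-1.60), Cyp2c37, at 65.4 and 12.3 CPM (-2.39), and Glul, at 533 and 190 CPM (-1.49). Cyp2e1 was 775 and 482 CPM (-0.68) and Lgr5 12.7 and 6.71 CPM (-0.90). Higher were Ccnd1, cyclin D1, at 25.1 and 67.1 CPM (1.42), and Cldn2, a tight junction claudin, at 19.4 and 43.5 CPM (1.17). Axin2, a direct target used as a readout of the pathway, was read 51 and 15 times, at 3.27 and 3.25 CPM, and Tbx3 was 11.2 and 9.74 CPM (-0.19). Nkd1, Lef1 and Tcf7 had at most 33 UMIs each in a library.

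Oat was also lower in both pairs of clusters set side by side above, and Glul between the main clusters. Glul was 460 and 172 CPM between the main clusters (-1.42) and 210 and 142 CPM between the Malat1-rich ones (-0.57), within 1.5-fold. Oat was 284 and 101 CPM, then 176 and 26.2 CPM. The ratios of Cyp2e1 were -0.61 and -0.56. Those of Lgr5 were -0.53 (-1.19 to 0.04) and -0.56 (-1.12 to 0.09), with intervals that included 0. The hepatocyte-like class also held cluster 19, with Glul at 6393 CPM and Cyp2e1 at 6419 CPM in WT. Cluster 19 had 176 WT and 3 N-LKO cells, and its part in the class ratios was not tested. Of 14 measured periportal genes, which the pathway holds down, 5 were lower, 0 were higher and 9 stayed within 1.5-fold (median -0.50), where 8.47% of all genes were lower. Among the lower ones was Etnppl at 245 and 35.7 CPM (-2.77). Genes of both ends were thus among those lower in N-LKO hepatocyte-like cells. Malat1 was 9204 and 4554 CPM there and the mitochondrial share 19.5% and 15.9%, and the part of these in the ratios was not tested. Of the 18 genes of β-catenin and its nuclear partners, 13 were measured, 1 higher and 4 lower, against 12.9% and 8.47%. The higher one was Bcl9l, a coactivator, at 12.1 and 18.2 CPM (0.59).

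The 5 lowest pathway genes in endothelial-like cells, Etnppl, Oat, Gls2, Hal and Cyp2c37, are genes of hepatocyte metabolism, with Oat at 236 and 44.1 CPM where free RNA was estimated at 182 and 26.7 CPM. The highest beside Znrf3, Ror1 and Lgr4 were Cdh1 (1.14) and Myc (0.97).

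Members were also followed along the lobule axis. Within each library hepatocyte-like cells were ranked by the share of 7 pericentral genes in their sum with 7 periportal genes, none of them a member, and divided into tertiles. These tertiles are ranges of a score and not zones, and because Glul and other score genes differed between the libraries, the same tertile need not be the same position. Lgr5 was 3.01 CPM in the periportal and 28.3 CPM in the pericentral tertile of WT, and 1.30 and 18.3 CPM in N-LKO, and Axin2 was likewise higher toward the pericentral end (log2 ratio 2.77 in WT and 2.38 in N-LKO). The order by score thus followed pericentral targets in both libraries, on few UMIs in N-LKO.

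Rnf43 was higher in the pericentral tertile, from 18.4 to 27.0 CPM in WT (log2 ratio 0.55, 0.17 to 0.93) and from 18.9 to 36.6 CPM in N-LKO (0.94, 0.28 to 1.66). With the score cut into 2 parts instead, the ratio was 0.30 (-0.01 to 0.62) in WT, an interval that included 0, and 0.77 (0.21 to 1.36) in N-LKO. Lgr4 went the other way, from 67.3 to 51.6 CPM in WT (-0.38, -0.62 to -0.15) and from 58.6 to 39.3 CPM in N-LKO (-0.57, -1.08 to -0.08). With 2 parts the Lgr4 ratio was -0.29 (-0.49 to -0.10) in WT and -0.36 (-0.75 to 0.03) in N-LKO, where the interval included 0. Tcf7l2 was 159 and 135 CPM in WT (-0.24) and 78.8 and 86.1 CPM in N-LKO (0.13), and every N-LKO tertile lay under every WT tertile. Znrf3 gave ratios of 0.28 in WT and -0.17 in N-LKO, and Ctnnb1 0.19 and 0.02. Malat1 also fell from the periportal to the pericentral tertile, from 10436 to 7604 CPM in WT and from 5404 to 3666 CPM in N-LKO. Median depth went from 1758.5 to 1386 UMIs in WT and from 1929 to 1885 UMIs in N-LKO. The part of these in the gradients was not tested, nor was whether the gradients differ between the libraries.

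**Figure D5:**
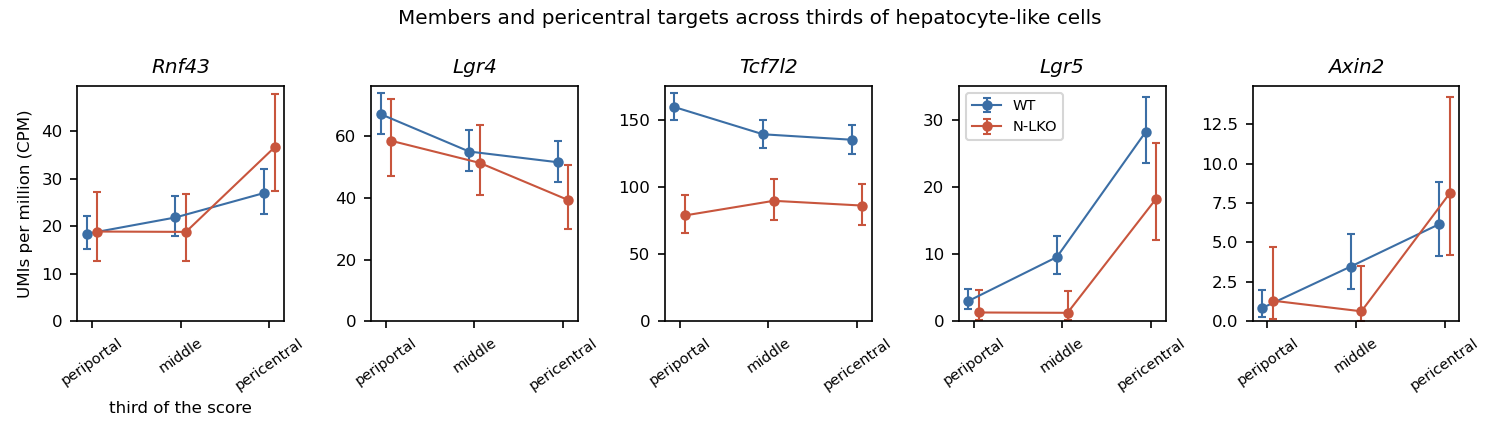
CPM (y axis, exact Poisson 95% intervals) of the members Rnf43, Lgr4 and Tcf7l2 and of the targets Lgr5 and Axin2 in periportal, middle and pericentral score tertiles (x axis) of hepatocyte-like cells, WT in blue and N-LKO in red. Lgr5, Axin2 and Rnf43 are highest in the pericentral tertile of both libraries, Lgr4 is lowest there, and Tcf7l2 is lower in N-LKO in each tertile.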

How the data were processed

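Collagenase-dissociated liver cells were captured in droplets and sequenced from the 3′ end. The authors aligned and counted reads with Cell Ranger (7.1.0 per the file headers), and the deposited values are UMI counts, whole numbers that had not been normalized. The submitters' processing notes name mm9 and Seurat. Whether intronic reads were counted is not given in the sources used here. The files held 100171 barcodes for WT and 90147 for N-LKO, and 0 columns of other samples.

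Barcodes with at least 1000 UMIs, 400 genes and at most 30% mitochondrial UMIs were kept. Scrublet in scanpy 1.11.5 removed barcodes with a doublet score over 0.25 (12.5% in WT and 10.4% in N-LKO). Counts were scaled to 10000, log-transformed, reduced to 30 components over 2007 variable genes after 3 members had been taken out, and clustered (leidenalg 0.10.2, 20 neighbors, resolution 0.3) into 23 clusters. Classes were named from 15 marker lists. A cluster was called mixed when a second, unrelated type reached over 0.7 of the leading score, with T and natural killer cells, for example, taken as related. That share, the doublet score, the cluster pairs and 3 of the alternatives were chosen after seeing the data. UMIs were summed per class and library. With 1 library per group no test was run. Free RNA in a class was estimated from barcodes under 500 UMIs, scaled by markers of other types, although the smallest barcodes deposited had 326 (WT) and 377 (N-LKO) UMIs, so part of this profile may be cells.

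The members and the 8 pathway lists were chosen with earlier results of these data known. Named genes were the 10 members and, of the lists, the 5 highest and 5 lowest in hepatocyte-like and endothelial-like cells, a short set of targets, ligand, inhibitor and endothelial genes, and for Wnt2, Wnt9b and Rspo3 the 3 genes of most similar profile. Bcl9l, Axin1 and Slc1a4 were among the highest in hepatocyte-like cells. Gene spans came from GENCODE M21 (32158 of 32285 identifiers matched), and promoter sequence from RefSeq, where entries for 6 of the 10 members were used. Scripts were tested on simulated data. Other tools were scikit-learn 1.9.0, pandas 2.3.3, scipy 1.17.1, matplotlib 3.10.9 and numpy 2.4.6 under Python 3.11.15.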

Additional observations from a re-analysis of the deposited data

Results flagged for a closer look

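Tcf7l2 had opposite directions in different cell classes. The log2 ratio of N-LKO over WT was 0.98 in T-like cells and -0.78 in hepatocyte-like cells, and both intervals excluded 0. In T-like cells macrophage markers, whose class holds the highest Tcf7l2, were 1508 in WT against 2308 CPM in N-LKO and T markers 2689 against 1817 CPM. Within finer clusters of the T-like cells the ratio was 1.66 in cluster 6 and -0.42 in cluster 14, which carries macrophage genes. The hepatocyte-like ratio was 0.55 with the unnamed cluster 5 counted as hepatocyte. With 1 library per group the difference between the classes was not tested.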

How the results depend on the processing

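No paired analysis was possible because each group had 1 library, and for the same reason no replicate could be left out. The ratios of Rspo3 and Wnt2 kept their direction in both classes under the other settings run, except within the finer endothelial clusters, from -1.11 to -0.66 for Rspo3 and from -1.56 to -0.76 for Wnt2 in endothelial-like cells, and from -1.88 to -1.22 and from -2.06 to -1.65 in hepatic stellate-like cells. Within finer endothelial clusters 2 and 9 the signs turned, to 0.021 and 0.56 for Rspo3 and to 0.42 and 0.19 for Wnt2, while in the small cluster 28 they were -0.07 and -0.37. Znrf3 in hepatic stellate-like cells ranged from 1.67 to 2.13 and Lgr4 from 2.02 to 3.02. Rnf43 in endothelial-like cells ranged from -0.58 to 2.10, on few UMIs. Subtracting free RNA left 0 of 18 Znrf3 UMIs in WT and 38.7 in N-LKO endothelial-like cells, so no ratio was computed.

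The number of members past 1.5-fold was 2 in hepatocyte-like, 5 in endothelial-like, 6 in hepatic stellate-like and 1 in macrophage-like cells, where 21.4%, 31.8%, 38.8% and 23.8% of all genes passed. In hepatocyte-like cells it was 4 with a mitochondrial limit of 10% (17.3% of all genes higher and 32.7% lower, with 679 WT and 214 N-LKO cells left), 6 with free RNA subtracted (70.8%), 1 at a fold of 2 (7.63%), and 5, all higher, with the unnamed cluster counted as hepatocyte (47.8%), where Tcf7l2 reversed to 0.55. At a minimum of 500 UMIs it was again 2 (25.6%), but both were higher. In macrophage-like cells it was 2 at a minimum of 500 UMIs (23.7%) or a mitochondrial limit of 10% (30.7%), 3 with doublets kept (23.9%) and 0 with free RNA subtracted (22.9%). In endothelial-like cells it was 2 at a fold of 2 (13.6%), and 4 were higher and 2 lower at resolution 0.8 (37.5%). With free RNA subtracted (33.0%), 5 UMIs added (28.1%) or mixed clusters counted in (26.0%), 2 were higher and 2 lower. In hepatic stellate-like cells a mitochondrial limit of 10% gave 3 higher and 4 lower (47.3%). The lower ones were 2 with doublets kept (36.4%), from 500 UMIs (39.3%), without a mitochondrial limit (40.3%) and at a fold of 2 (15.6%). The 10% limit left 53 endothelial-like and 91 hepatic stellate-like N-LKO cells. Hepatocyte-like ratios were the least stable, with Tcf7l2 from -1.95 to 0.55, Znrf3 from -1.24 to 1.66 and Rnf43 from -1.91 to 1.74. After subtraction of free RNA, CPM was taken over the UMIs left, and the hepatocyte-like total shrank more in WT than in N-LKO. Beyond the settings named, the cause of these moves was not tested. Depth limits Wnt9b most, at 15 and 21 endothelial-like UMIs.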

Other observations

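Some immune classes outside the comparisons above held more transcript of the R-spondin receptor or its ligases in the N-LKO library, and others did not. In monocyte-like cells Lgr4 was 13.8 CPM in WT and 31.3 in N-LKO, Znrf3 23.4 and 54.8, and Rnf43 9.56 and 26.2, where free RNA was estimated at 9.38 and 15.7 CPM for Lgr4 and at 8.18 and 18.6 CPM for Znrf3. In plasmacytoid dendritic-like cells Znrf3 was read 8 and 62 times (26.8 and 80.5 CPM), and Lgr4 0 and 24 times. B-like cells had 11 and 81 Znrf3 UMIs (26.4 and 67.4 CPM). In neutrophil-like cells Lgr4 was instead 50.2 and 32.8 CPM and Rnf43 37.6 and 33.8 CPM. Ctnnb1, by comparison, was 105 and 99.1 CPM in monocyte-like cells and 151 and 116 CPM in B-like cells. With 1 library per group none of these differences was tested.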
